A study of Arabidopsis thaliana with 9 samples.

Results

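The plastid genome of Arabidopsis thaliana encodes the core subunits of the photosynthetic machinery, and the transcripts of these genes were followed here in dark-grown seedlings. The genes were taken by a rule that used no measured value: a probe set paired with 1 gene of the plastid genome (locus tag starting ArthCp) whose symbol starts with psa, psb, pet or atp, or is rbcL. The rule gave 33 probe sets for 33 genes, out of 22746 probe sets on the array and 69 plastid genes with a probe set. They comprise 5 genes of photosystem I, 15 of photosystem II, 6 of the cytochrome b6f complex, 6 of the ATP synthase, and rbcL. The symbols and tags were matched to the TAIR10.1 gene table, and each gene had 1 probe set.

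RNA came from whole Col-0 seedlings kept in darkness for 4 days on half-strength Murashige and Skoog plates containing sucrose. Of 3 genotypes, each with 3 biological replicates on 1 array each, the first was wild type. The second was the mutant cop1-4, and the third was cop1-4 carrying BBX22-GFPox, taken to mean an overexpressed BBX22-GFP fusion. Both mutant groups therefore share the cop1-4 allele. COP1, part of a ubiquitin ligase, keeps light responses off in the dark, cop1-4 is known as a weak, viable allele, and BBX22 is a B-box protein that promotes light responses. The labels name neither the construct's promoter nor how many lines were used, and the transcripts of COP1 and BBX22 were not analysed here.

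Plastid genes are transcribed by a bacterial-type plastid polymerase, whose core is plastid-encoded and whose sigma factors come from the nucleus, and by phage-type polymerases encoded in the nucleus. Many lie in operons whose long transcripts are cut into shorter ones. In darkness a seedling's leaf-type plastids stay etioplasts without a working thylakoid system, and on illumination plastid and nuclear photosynthesis genes are expressed together as chloroplasts form. Plastid transcripts mostly lack the long poly(A) tails of cytosolic mRNA, and the labels do not state how the first strand was primed. In RNA of whole seedlings, fewer cells with active plastids and less RNA per cell cannot be told apart.

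Signals are MAS5 intensities in array units, and a log2 change is a difference of mean log2(signal + 24.5) between genotypes. A gene is said to rise or fall where limma, fitted to all 15922 probe sets that passed a filter on low values, gave an adjusted p under 0.05 (Benjamini-Hochberg over all of them). All 33 genes passed the filter, and their lowest signal in any array was 100.2. In each genotype the array of replicate 1 differed from the other two: across probe sets it correlated with them at 0.921 to 0.926 in wild type, at 0.816 to 0.819 in the mutant alone and at 0.842 to 0.845 with the construct, where replicates 2 and 3 correlated with each other at 0.982 to 0.989. The labels give no batch or date that would describe this. Results are therefore also given for replicate 1, where 1 array per genotype allows no test, and for replicates 2 and 3. Markers of other tissue in the seedlings were compared too. In cop1-4 against wild type only the seed gene OLEO3 was called (limma, lowered, adjusted p = 7.6e-05). With the construct against wild type OLEO3 was again lowered (9.61e-05), and the guard cell lineage gene FAMA was raised (0.0259). The other guard cell lineage marker, SPCH, overlapped between cop1-4 and wild type, as did both root hair markers. The seed oleosin gene OLEO3 lay at 1959.6 to 2322.5 in wild type, at 45.6 to 69.1 in the mutant alone and at 35.9 to 98.9 with the construct. The summed signal of 2 guard cell lineage markers was 101.8 to 128.2, 196.3 to 223.8 and 274.2 to 292.7 in the same order. That of 2 root hair markers was, again in this order, 47.0 to 609.5, 196.3 to 1048.6 and 100.9 to 948.8. Within each genotype both root hair markers were lowest in replicate 1. EXPA18 was 40.4, 64.3 and 33.8 in replicate 1, and 373.9 to 403.1, 573.8 to 750.3 and 505.9 to 596.9 in replicates 2 and 3. EXPA7 was 6.6, 132 and 67.1 in replicate 1, and 179.5 to 206.4, 298.3 to 331 and 260.4 to 351.9 in replicates 2 and 3. Whether root hair content has a part in what set replicate 1 apart was not tested. No marker was at 0 in any group, 5 of 9 fixed markers had a probe set with 1 gene, and the part of these differences in the results below was not tested.

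The first comparison set cop1-4 against wild type, both grown in the dark. Of the 33 genes 8 rose and 0 fell: psbA, psbC, psbD, psbK and psbZ of photosystem II, psaJ of photosystem I, petN of the cytochrome complex and atpI of the ATP synthase. Over all probe sets tested, 11.3% rose and 14.5% fell. The median log2 change of the 33 genes was 0.63, against -0.11 over all probe sets tested, and 32 of the 33 lay above 0, the exception being rbcL. Of all 15922 probe sets tested 7151 lay above 0. In 19 genes the 3 arrays of cop1-4 all lay above the 3 of wild type, which held for 19.2% of all probe sets tested, and in 0 genes did they all lie below, which held for 25.7%. Deviations from genotype means correlated between same-numbered arrays, with replicate 1 set apart in each genotype. The separate replicate 1 enters all of these correlations, and arrays of unequal number were not compared. The correlations therefore cannot show that the other replicates pair by number, and all p-values with the block rest on that pairing. Blocking on the replicate number raised 17 genes, the same 8 and 9 more, and lowered 0. In that fit 19.9% of all probe sets rose and 24.6% fell. Scaling each array to the same median in place of the deposited scaling moved the median change of all probe sets by 0.12 and the share of calls that were raised from 43.8% to 57.0%. The same 8 plastid genes were called with it, while quantile normalization called petG (adjusted p = 0.045) in place of psbK (0.0618).

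**Figure D1:**
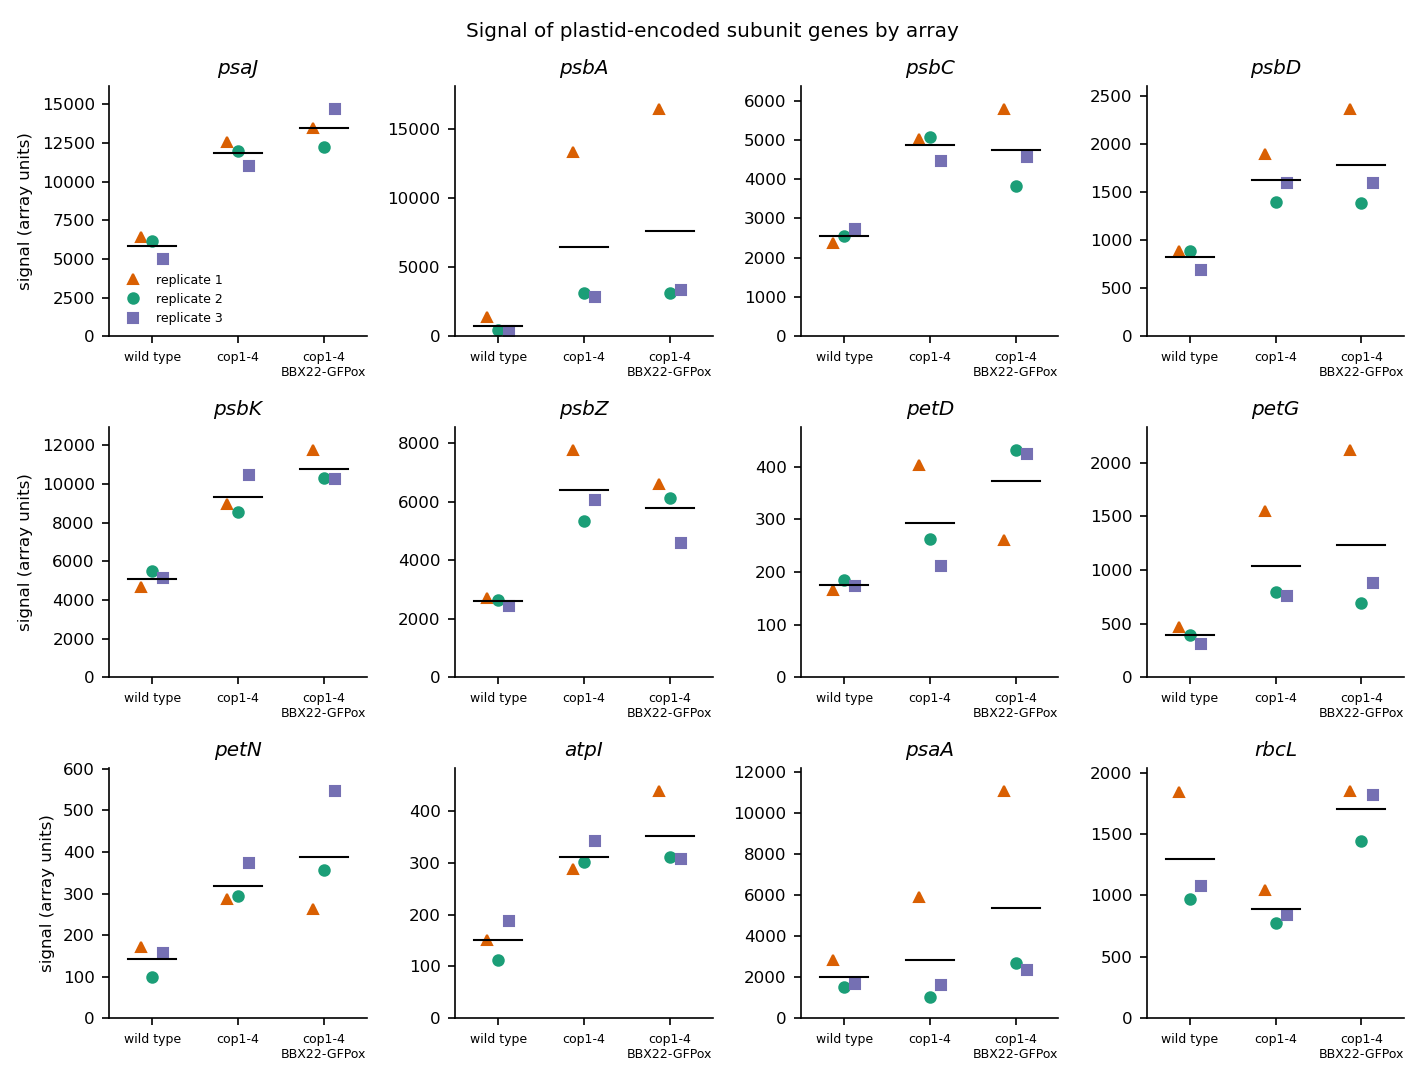
Signal in array units (linear axes from 0) of the 10 genes called in any comparison with wild type, and of psaA and rbcL, in each of the 9 arrays. Symbols mark the replicate number and bars the mean of 3 arrays; psbA lies at 411 to 1394 in wild type and at 2865 to 13355 in cop1-4, with replicate 1 highest in each genotype.

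Photosystem II, which oxidises water, had 5 of its 15 genes raised, where 11.3% of all probe sets tested rose. The median log2 change of the 15 genes was 0.84. The largest change of any of the 33 genes was that of psbA (ArthCp002), which encodes the D1 reaction centre protein, the subunit that turns over fastest in the light. Its signal was 1394, 474 and 411 in the wild type arrays (replicates 1 to 3), 13355, 3108 and 2865 in cop1-4, and 16469, 3135 and 3364 in cop1-4 BBX22-GFPox. The lowest cop1-4 array lay above the highest wild type array, and replicate 1 was the highest in every genotype. The log2 change in cop1-4 was 2.87 (SE 0.82, adjusted p = 0.0329), with 3.24 in replicate 1, 2.65 in replicate 2 and 2.73 in replicate 3. With the block the adjusted p was 9.25e-05. The psbA call was lost when wild type replicate 2 or 3 or cop1-4 replicate 1 or 2 was left out (up to 0.108 without wild type replicate 3).

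The genes psbD, psbC and psbZ, which lie next to each other and form an operon, all rose. They encode the D2 reaction centre protein, the inner antenna protein CP43 and a small subunit. The signal of psbD (ArthCp017) was 884, 892 and 687 in wild type and 1895, 1392 and 1592 in cop1-4 (log2 change 0.96, SE 0.25, adjusted p = 0.0244). That of psbC (ArthCp018) was 2384, 2556 and 2732 in wild type and 5016, 5084 and 4474 in cop1-4 (0.92, SE 0.21, adjusted p = 0.0158). That of psbZ (ArthCp019) was 2709, 2655 and 2425 in wild type and 7767, 5339 and 6062 in cop1-4 (1.28, SE 0.23, adjusted p = 0.00588). None of the 3 overlapped between the genotypes, and replicate 1 was not set apart in psbC, where the differences were 1.07, 0.99 and 0.71 in replicates 1 to 3. The psbZ call held when any 1 array was left out. The psbD call was lost without any of the wild type arrays or cop1-4 replicate 3 (up to 0.0905 without wild type replicate 3), and the psbC call without wild type replicate 1 or 2 or cop1-4 replicate 2 (up to 0.0592 without the last).

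The neighbours psbK and psbI encode small subunits. The signal of psbK (ArthCp005) rose from 4674, 5510 and 5114 in wild type to 8951, 8527 and 10491 in cop1-4 (log2 change 0.86, SE 0.19, adjusted p = 0.0138, and 0.0532 without cop1-4 replicate 3). The signal of psbI was 3688 to 5273 in wild type and 5997 to 7738 in cop1-4, without overlap, but was not called (0.61, adjusted p = 0.0893). Next, psbB, psbT and psbH share an operon with petB and petD. The genes psbB, for the antenna protein CP47, psbT and psbH had log2 changes of 0.87, 1.37 and 0.61, and none was called in the fit without the block (adjusted p = 0.194, 0.106 and 0.244), while the block called all of them (0.029, 0.00787 and 0.022). The gene psbN lies on the opposite strand within this operon and encodes a protein known from tobacco to be needed for assembly. It stood at 0.84 (adjusted p = 0.119, and 0.0349 with the block), with differences of 1.34, 0.01 and 1.17 in replicates 1 to 3.

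The 4 genes of the psbE operon behaved differently between replicates. The genes psbE and psbF encode the subunits of cytochrome b559, and psbL and psbJ small subunits beside it. The signal of psbE (ArthCp039) was 5439, 5392 and 5121 in wild type, 9059, 4410.2 and 3927 in cop1-4, and 10639, 6308 and 6817 in cop1-4 BBX22-GFPox. In cop1-4 it was above wild type in replicate 1 and below it in replicates 2 and 3, and its log2 change of 0.02 (adjusted p = 0.97) went below 0 with quantile normalization (-0.22). Within replicates 2 and 3 psbE was the only one of the 33 genes lowered (-0.33, adjusted p = 0.037). The other 3 genes of this operon had log2 changes of 0.08 to 0.33 and overlapping genotypes. The gene psbM, for a small subunit at the dimer's contact, stood at 0.51 (adjusted p = 0.427), with 8687 to 25944.5 in wild type and 13688 to 32727 in cop1-4.

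Photosystem I, which reduces ferredoxin, had a median log2 change of 0.59 over its 5 genes. Of these genes 1 rose, where 11.3% of all probe sets tested did. This was psaJ (ArthCp042), for a small subunit near the plastocyanin docking side, at 6448, 6165 and 4992 in wild type, 12544, 11989 and 11006 in cop1-4, and 13443, 12234 and 14713 in cop1-4 BBX22-GFPox. The differences between cop1-4 and wild type were close to each other across the replicates (0.96, 0.96 and 1.14), the log2 change was 1.02 (SE 0.20, adjusted p = 0.00813), and the call held when any 1 array was left out. The reaction centre genes psaA and psaB were not called. The signal of psaA (ArthCp022) was 2826, 1542 and 1688 in wild type, 5915, 1045.1 and 1635 in cop1-4, and 11085, 2696 and 2336 in cop1-4 BBX22-GFPox. In cop1-4 it was higher than wild type in replicate 1 and not in replicates 2 and 3, with differences of 1.06, -0.55 and -0.05. Its log2 change was 0.15 (SE 0.74, adjusted p = 0.893), and that of psaB 0.40 (adjusted p = 0.462). The gene psaC, for the protein that carries the terminal iron-sulphur clusters, and psaI, for a small subunit, did not overlap between the genotypes. They stood at 0.59 (adjusted p = 0.3) and 0.95 (adjusted p = 0.139), and the block called psaI (0.00912).

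The cytochrome b6f complex passes electrons between the photosystems, and its 6 plastid genes had a median log2 change of 0.85. Of these genes 1 rose, where 11.3% of all probe sets tested did. The signal of petN (ArthCp015), for a small subunit, was 171, 100.2 and 157 in wild type and 286, 293 and 373 in cop1-4, without overlap (log2 change 1.05, SE 0.29, adjusted p = 0.029). The call was lost without wild type replicate 2 or 3 or cop1-4 replicate 2 or 3 (up to 0.1 without wild type replicate 2). The neighbours petL and petG, also for small subunits, had larger log2 changes with a wider spread. The signal of petL (ArthCp040) was 870.1, 480.3 and 338 in wild type and 2837, 1008 and 1283 in cop1-4 (1.52, SE 0.63, adjusted p = 0.105, and 0.00217 with the block). That of petG (ArthCp041) was 473, 397 and 309 in wild type and 1548, 796 and 761 in cop1-4 (1.28, SE 0.435, adjusted p = 0.0588, and 0.00368 with the block). In both genes the 3 cop1-4 arrays lay above the 3 of wild type.

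The larger cytochrome subunits changed less by their fitted values, and this difference was not tested. The gene petA, for cytochrome f, stood at 0.64 (adjusted p = 0.136, and 0.0178 with the block), and petD, for subunit IV, at 0.63 (adjusted p = 0.119). The signal of petD (ArthCp054) was 166, 184 and 173 in wild type, 402, 263 and 211 in cop1-4 and 261, 432 and 423 in cop1-4 BBX22-GFPox, so that replicate 1 was the highest array in one mutant genotype and the lowest in the other. The gene petB, for cytochrome b6, overlapped between the genotypes at 20351, 17489.6 and 17267 in wild type against 25062, 17115 and 15691 in cop1-4. Its log2 change was 0.04 (adjusted p = 0.919) and went below 0 with quantile normalization (-0.08).

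The median log2 change of the 6 ATP synthase genes was 0.56, and 0.0658 without cop1-4 replicate 1. Of these genes 1 rose, where 11.3% of all probe sets tested did. This was atpI (ArthCp010), for subunit a of the membrane part, at 150.4, 113 and 187 in wild type and 288, 302 and 342 in cop1-4 (log2 change 0.96, SE 0.22, adjusted p = 0.0162). The call was lost without wild type replicate 2 (0.0589) or cop1-4 replicate 3. In the same operon atpF and atpH encode a stalk subunit and the ring-forming subunit c. The signal of atpF (ArthCp008) was 3788, 650.0 and 785 in wild type, 10302, 1183 and 1351 in cop1-4, and 14269.4, 1296 and 1245 in cop1-4 BBX22-GFPox. Replicate 1 lay far above replicates 2 and 3 in every genotype, by 2.37 on the log2 scale in wild type and 3.46 in cop1-4 BBX22-GFPox. The log2 change of 1.01 therefore had an SE of 1.17 and an adjusted p of 0.554, while the same-numbered differences were 1.44, 0.84 and 0.76 and the block called it (0.0101). The signal of atpH (ArthCp009) was 2942, 1018 and 984 in wild type and 7625, 1344 and 1091 in cop1-4 (0.63, adjusted p = 0.666).

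The catalytic subunits of the ATP synthase were not called. The genes atpA and atpB, for subunits alpha and beta, stood at 0.48 (adjusted p = 0.535) and 0.28 (adjusted p = 0.377), the latter without overlap between the genotypes. The gene atpE, for subunit epsilon, lay at 18423, 18484 and 25506 in wild type and 32657, 25485 and 24213 in cop1-4, with overlap (0.40, adjusted p = 0.239). The single Rubisco gene of the plastid, rbcL (ArthCp030), for the large subunit that fixes CO2, was the 1 gene of the 33 with a log2 change below 0. Its signal was 1839.6, 974 and 1079 in wild type and 1045, 778 and 842 in cop1-4. The genotypes overlapped and the log2 change was -0.49 (SE 0.27, adjusted p = 0.217, and 0.0629 with the block), with -0.80, -0.31 and -0.35 in replicates 1 to 3. With a batch term for replicate 1 in place of the block, rbcL was called lowered.

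**Figure D2:**
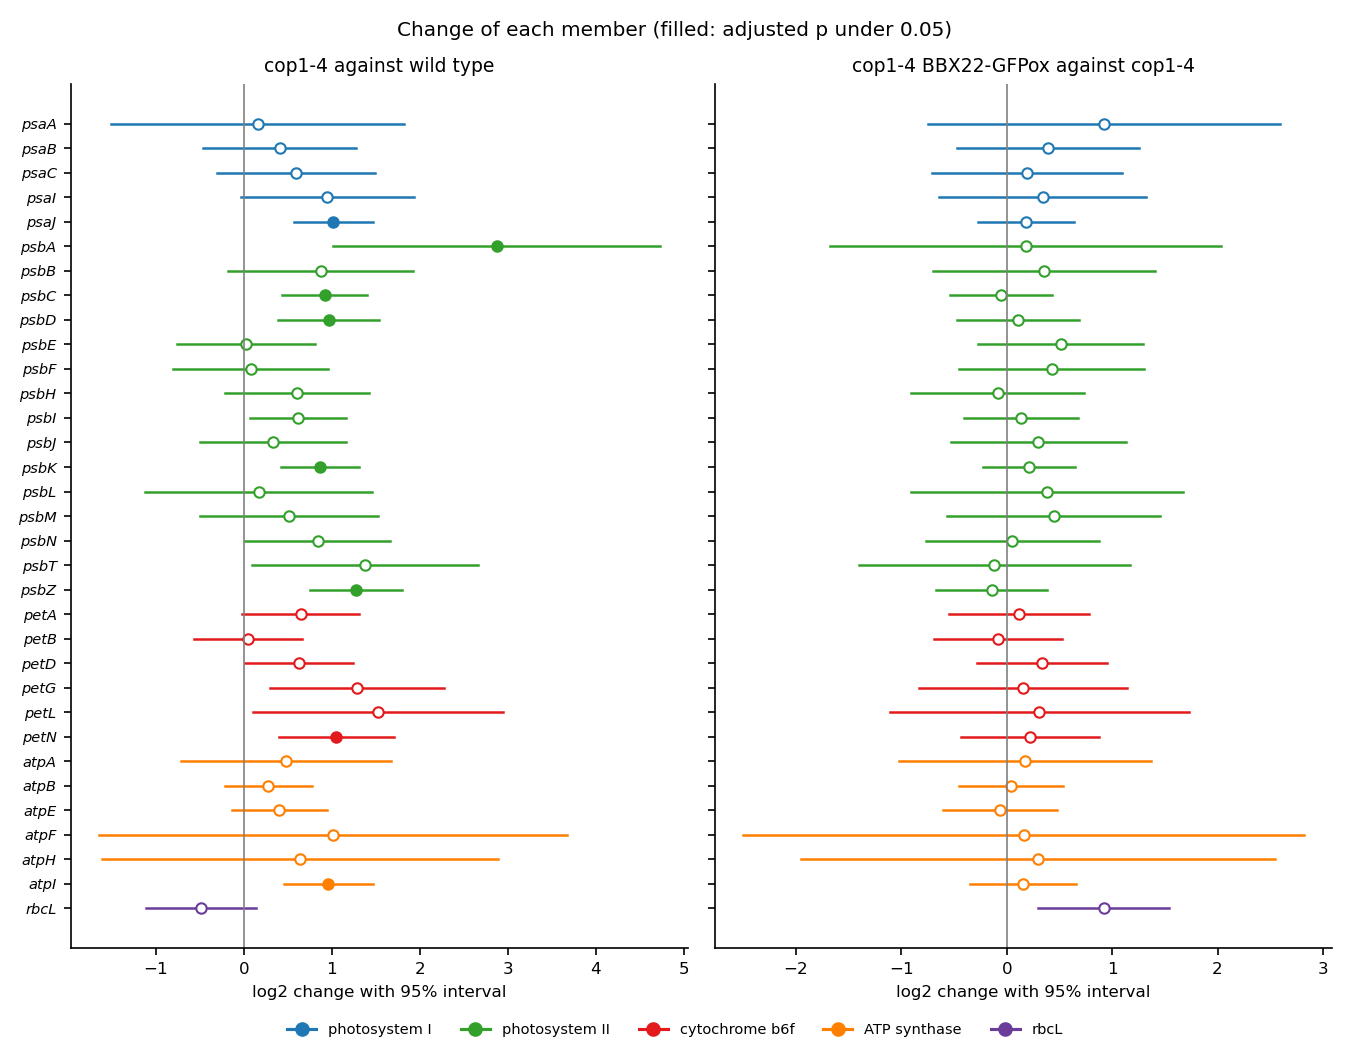
Log2 change with 95% interval of each of the 33 genes, for cop1-4 against wild type (left) and cop1-4 BBX22-GFPox against cop1-4 (right), coloured by complex. Filled points mark an adjusted p under 0.05: 8 on the left and 0 on the right, and the widest intervals are those of atpF and atpH.

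The size of the changes in cop1-4 differed between replicate 1 and the other replicates. The median over the 33 genes of the difference between same-numbered arrays was 0.96 in replicate 1, 0.46 in replicate 2 and 0.63 in replicate 3. The difference was largest in replicate 1 in 24 genes, and in 6204 of all 15922 probe sets tested. By complex, the medians in replicate 1 and over replicates 2 and 3 were 0.99 and 0.57 for photosystem I, 1.06 and 0.60 for photosystem II, 1.03 and 0.81 for the cytochrome complex, and 0.85 and 0.28 for the ATP synthase. All 3 differences lay above 0 in 26 genes, and in 4502 of all 15922 probe sets tested. In 4 genes, psbE, psbF, petB and psaA, replicate 1 lay above 0 and replicates 2 and 3 below it, as in 1579 of all 15922 probe sets. Replicates 2 and 3 alone raised 19 genes and lowered 1, where 29.1% of all probe sets rose and 33.6% fell.

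Replicate 1 itself carried higher signals of these genes. It was the highest of the 3 arrays in 24 of the 33 genes for wild type, in 29 for the mutant alone and in 30 with the construct, by median log2 differences over replicates 2 and 3 of 0.37, 0.94 and 0.70. Over all 15922 probe sets tested these medians were -0.04, -0.11 and -0.04, and replicate 1 was the highest array in 5965, 6319 and 6807 of them. The part of whatever set replicate 1 apart in the larger differences there was not tested.

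**Figure D3:**
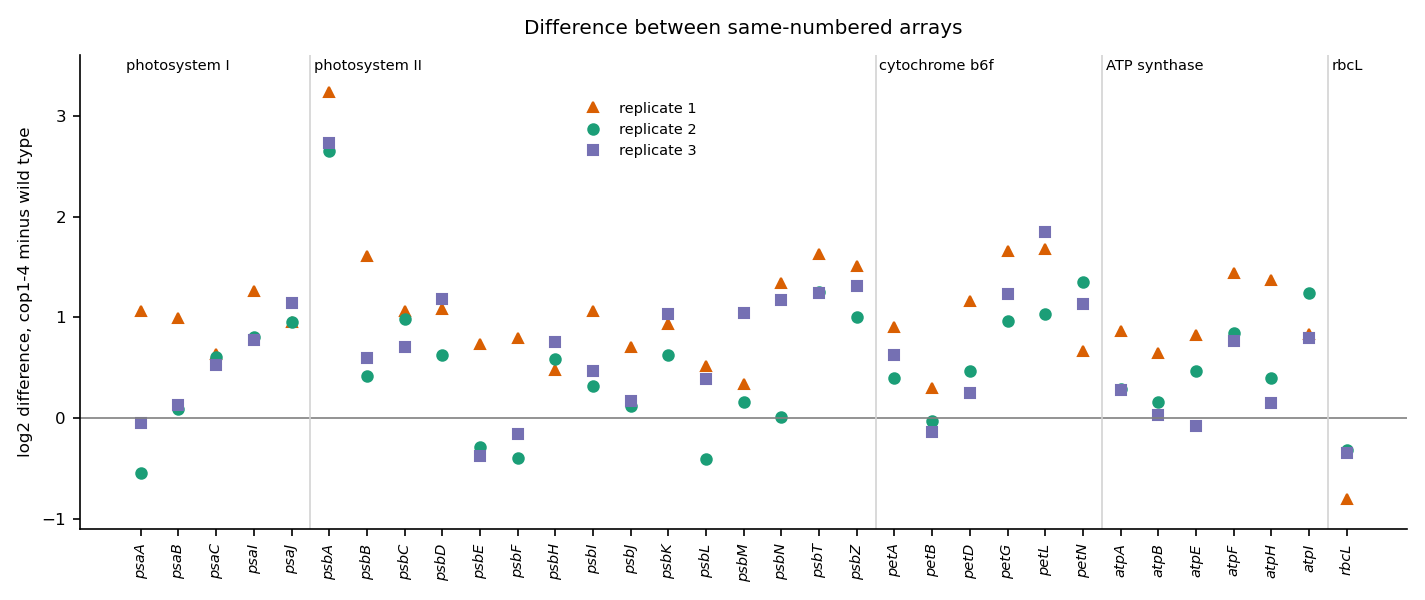
Difference of log2(signal + 24.5) between the cop1-4 and wild type arrays of the same replicate number, for each of the 33 genes ordered by complex. The psbA differences of 2.65 to 3.24 stand above all others, and in psbE, psbF, petB and psaA replicate 1 is above 0 and replicates 2 and 3 are below.

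The second comparison set the construct in the cop1-4 background against cop1-4 alone. None of the 33 genes was called by limma (0 higher, 0 lower). For 1 gene the unadjusted p was under 0.05. Blocking on the replicate number also called 0, where 1.04% of all probe sets rose and 0.258% fell. In the fit without the block 0.283% of all probe sets rose and 0.0188% fell. Of the 33 genes 27 lay above 0, as did 7860 of all 15922 probe sets tested. The median log2 change of the 33 genes was 0.18, against -0.00470 over all probe sets tested. That median was -0.085 without replicate 1 of cop1-4 BBX22-GFPox and 0.48 without replicate 1 of cop1-4. The intervals do not show that the genotypes were alike. For psbA the log2 change was 0.18 with a 95% interval of -1.67 to 2.04, for atpF it was 0.16 with -2.50 to 2.82, and for psbC, which varied less, it was -0.06 with -0.54 to 0.43.

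The gene with the unadjusted p under 0.05 was rbcL. Its signal was 1045, 778 and 842 in cop1-4 and 1853, 1442 and 1814 in cop1-4 BBX22-GFPox, and it was the only one of the 33 genes in which the 3 arrays with the construct all lay above the 3 without it, an order found in 6.37% of all probe sets tested (4.99% had the opposite order, and 0 of the 33 genes). The log2 change was 0.92 (SE 0.27, limma adjusted p = 0.336), with 0.81, 0.87 and 1.09 in replicates 1 to 3, and the call was missed with the block as well (0.0633). With array weights, and with a batch term for replicate 1, rbcL was called raised. Among the others the largest change in photosystem I was that of psaA (0.92, adjusted p = 0.982), in photosystem II that of psbE (0.51, 0.918), in the cytochrome complex that of petD (0.34, 0.983) and in the ATP synthase that of atpH (0.30, 0.999). The lowest values in photosystem II, the cytochrome complex and the ATP synthase were those of psbZ (-0.14), petB (-0.08) and atpE (-0.07), each with an adjusted p of 0.999, and petB and atpE went above 0 with quantile normalization.

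Within replicates 2 and 3 alone 8 of the 33 genes were raised and 0 lowered, where 12.8% of all probe sets rose and 11.5% fell. They were rbcL (log2 change 0.98, adjusted p = 0.000229), psaA (0.93), psbE (0.65), psbF, petD, psbM, psaB and psbJ. Of these, rbcL, psaA, psbE and psbF had been below wild type in cop1-4 in these replicates, and both comparisons share the cop1-4 arrays. In replicate 1 the difference of psbE was 0.23, that of psbF 0.01 and that of petD -0.58.

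The third comparison set cop1-4 BBX22-GFPox against wild type, and it shares the wild type arrays with the first and the construct's arrays with the second. Here 10 of the 33 genes rose and 0 fell, where 9.80% of all probe sets rose and 11.7% fell. The 10 were those 8 that rose in cop1-4, together with petD and petG. The log2 changes were 3.05 for psbA (adjusted p = 0.0298), 1.199 for psaJ (0.00451), 1.11 for atpI (0.00984), 1.08 for psbK (0.00626), 1.13 for psbZ (0.0103), 1.27 for petN (0.0158), 1.07 for psbD (0.0187) and 0.86 for psbC (0.0221). Those of petG and petD were 1.44 (0.0455) and 0.96 (0.0354). The calls of psaJ, psbK, psbZ and atpI held when any 1 array was left out, those of psbD and petN were lost without either of 2 arrays, those of psbA and psbC without any of 4, petD without any of 6 and petG without any of 7. Without the filter on low values neither petG nor petD was called (0.0568 and 0.0534), and with median scaling petG was not (0.061). The block raised 26 genes and lowered 0, where 18.9% of all probe sets rose and 21.8% fell. Replicates 2 and 3 alone raised 30 and lowered 0, where 27.8% rose and 32.6% fell. In 20 genes the arrays with the construct all lay above wild type and in 0 below, against 19.2% and 24.6% of all probe sets. The psaI and petL genes stood at 1.29 and 1.83 and were not called (adjusted p = 0.0653 and 0.0684), while the block called both (0.00286 and 0.00124).

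The arrays with the construct held the following signals in replicates 1 to 3. They were 2367, 1390.2 and 1598 for psbD, 5791, 3837 and 4567 for psbC, 6597, 6136 and 4599.7 for psbZ and 11772, 10303 and 10266 for psbK, all above wild type. For petN they were 263, 356 and 547, for petG 2122, 697 and 882, for petL 4972, 1240.0 and 1140.5, and for atpI 439, 310.1 and 306. Each of these 4 genes also lay above wild type in all 3 arrays, with replicate 1 lowest in petN and highest in petG, petL and atpI. For atpH the signals were 11611, 1213 and 1491, for atpE 31370.3, 23232 and 24043, and for petB 23969, 15752.5 and 15006, and these genes overlapped with wild type.

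In mean signal 27 of the 33 genes followed the order wild type, cop1-4, cop1-4 BBX22-GFPox from low to high. How many of all probe sets did so was not counted. Means of linear signals weigh the highest array most, and in most of these genes that was replicate 1. With the construct against cop1-4, 13 of the 33 genes lay above 0 in all 3 same-numbered pairs, as did 3310 of all 15922 probe sets tested. In 4 genes, psbC, psbH, psbZ and atpE, wild type had the lowest mean and cop1-4 the highest. In petB cop1-4 also had the highest mean, with cop1-4 BBX22-GFPox the lowest, and in rbcL cop1-4 had the lowest. No gene was called between the mutant genotypes in the fit without the block, so these data do not settle the order of those neighbours.

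Position along the plastid genome was not used to choose the genes. The operon psbD, psbC and psbZ held 3 genes of near equal change in cop1-4 (0.92 to 1.28), as did petL and petG (1.28 and 1.52), psbK and psbI (0.61 and 0.86) and atpB and atpE (0.28 and 0.40). The 4 genes of the psbE operon lay between 0.02 and 0.33, and psaA and psaB at 0.15 and 0.40. The operon of psbB was less even, from 0.04 for petB to 1.37 for psbT, and the atpI, atpH, atpF and atpA operon ran from 0.48 to 1.01. Probe sets of different genes differ in how they respond to their transcripts, so these are changes, not levels, set side by side. Next to rbcL at -0.49 lay atpB at 0.28 and accD at 0.51.

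**Figure D4:**
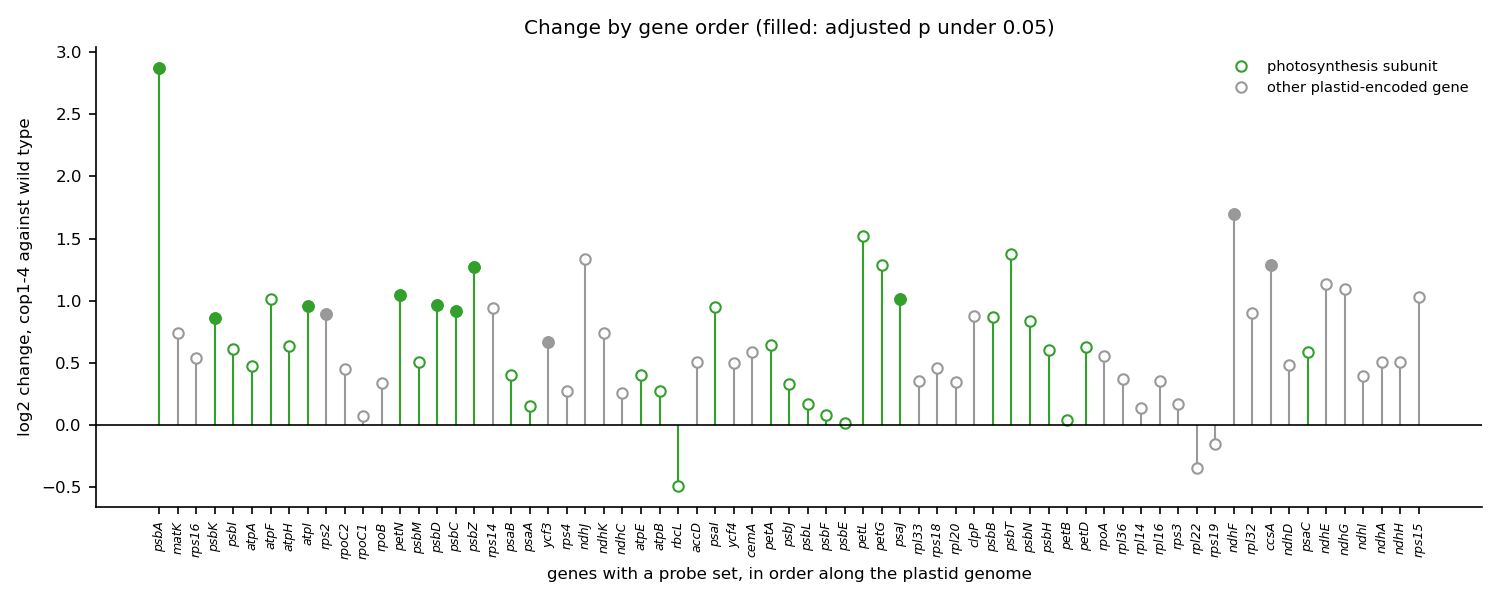
Log2 change in cop1-4 against wild type of the 69 plastid genes with a probe set, in their order along the plastid genome (gene ranks, not distances). Green marks the 33 photosynthesis subunit genes and grey the other 36, filled points have an adjusted p under 0.05, and rbcL, rpl22 and rps19 are the genes below 0.

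The other plastid genes were set beside these. Of 36 other plastid-encoded genes with a probe set 4 rose in cop1-4 and 0 fell, and the raised share is close to the 11.3% over all probe sets. The block raised 14 of them, where 19.9% of all probe sets rose, and replicates 2 and 3 alone raised 22, where 29.1% did. Their median log2 change was 0.51, against 0.63 for the photosynthesis genes. The difference between these medians was not tested. Raised were ndhF (1.70, adjusted p = 0.0055), of the NDH complex, ccsA (1.29, 0.0347), for cytochrome c assembly, rps2 (0.89, 0.022), for a ribosomal protein, and ycf3 (0.67, 0.0283), for photosystem I assembly. The 7 ycf and other genes had a median of 0.67, the 10 NDH genes 0.62, the 15 ribosomal protein genes 0.36 and the 4 genes of the plastid polymerase core 0.39 (0 of 4 called). Apart from ndhF, each of these calls was lost without certain arrays (4 arrays for rps2, 5 for ycf3 and 7 for ccsA). Against cop1-4, none of the 36 was called with BBX22-GFPox (limma, 0 also at an unadjusted p under 0.05).

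For the other organelle, the platform annotation named 17 probe sets by symbols of mitochondrial genes (nad, cox, cob, ccm or atp) that the gene table did not hold, and 10 passed the filter. Of these 0 rose and 2 fell in cop1-4, nad5 (-1.21, adjusted p = 0.0207) and nad4L (-0.95, 0.0474), with a median of -0.42, where 14.5% of all probe sets fell. Mean signals in wild type and cop1-4 were 168.7 and 56.2 for nad5, and 94.2 and 37.8 for nad4L. The cop1-4 means of the tested probe sets ran from 37.8 to 380.8 (nad4). Signals near the offset of 24.5 compress log2 changes, which limits a comparison with the plastid genes. The other 8 were not called, and no test compared these probe sets with the plastid genes. Without certain arrays the nad5 and nad4L calls did not stand (3 arrays for nad5 and 6 for nad4L). A probe set that then failed the filter and was not tested counted as a lost call, as nad4L did without wild type replicate 1. This list was made once the platform's annotation was known.

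The nucleus encodes the remaining subunits of the same complexes. Of 35 such genes fixed as a list 6 had a probe set with 1 gene, and all 6 rose in cop1-4, with a median log2 change of 1.499. Over all probe sets tested 11.3% rose. The signal of PSBW (AT2G30570), a small photosystem II subunit, was 2822, 3304 and 3883 in wild type, 14495, 9113 and 7176 in cop1-4 and 11614, 9177 and 8939 in cop1-4 BBX22-GFPox (cop1-4 against wild type 1.56, adjusted p = 0.0065). ATPC1 (AT4G04640), for subunit gamma of the ATP synthase, rose by 1.297 (adjusted p = 0.0167, and up to 0.0568 when wild type replicate 1 or 3 was left out). PETM (AT2G26500), of the cytochrome complex, rose by 1.43 (0.0339). Leaving out any of 5 arrays ended that call, with 0.0996 when wild type replicate 1 was missing. The PSAE1 call was lost without wild type replicate 1 or cop1-4 replicate 2 (up to 0.0562). The calls of PSBW, PSAN and PSBY held when any 1 array was left out. With BBX22-GFPox against cop1-4 none of the 6 was called (0, and 0 at an unadjusted p under 0.05 by limma), with a median of 0.05. The medians in cop1-4 against wild type were 2.41 in replicate 1 and 1.04 over replicates 2 and 3.

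Of 22 nuclear genes for plastid transcription fixed as a list 1 had a probe set with 1 gene in the annotation used. Probe sets with several genes or none listed were left out, so this does not show that the array lacks the others. The 1 gene was RPOTMP (AT5G15700), a phage-type RNA polymerase found in mitochondria and plastids. Its signal was 22.5, 9.7 and 7.3 in wild type, 17.8, 196 and 132 in cop1-4 and 27.9, 169 and 167 in cop1-4 BBX22-GFPox. In replicate 1 it was low in every genotype, and in replicates 2 and 3 it was higher in both mutant genotypes than in wild type. The log2 change in cop1-4 was 1.61 (adjusted p = 0.112, and 0.0368 with the block), and the wild type signals lay under the offset of 24.5, which compresses it. The sigma factors and the proteins associated with the plastid polymerase were not analysed here.

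**Figure D5:**
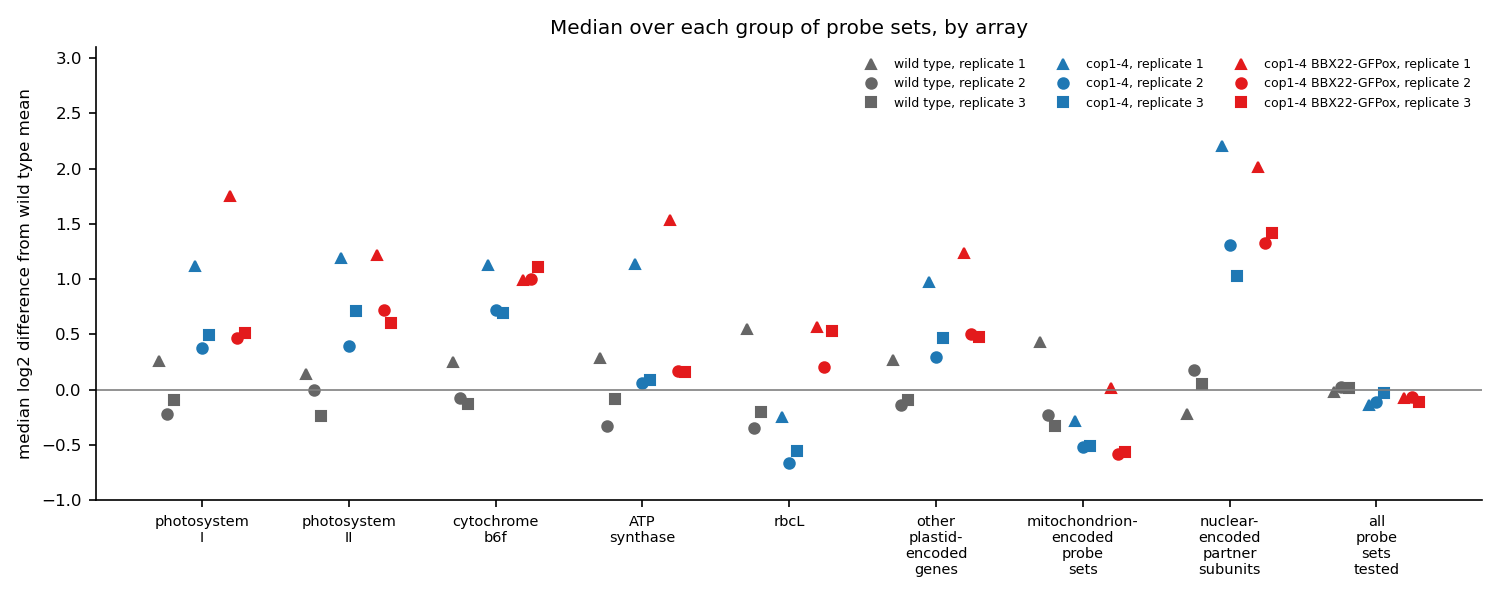
Median over each group of probe sets of the difference of log2(signal + 24.5) from the wild type mean, for each of the 9 arrays (colour: genotype, symbol: replicate number). All arrays of both mutant genotypes lie above those of wild type in the photosystems, the cytochrome complex and the nuclear-encoded partner subunits. In the ATP synthase wild type replicate 1 (0.29) lies above replicates 2 and 3 of both mutant genotypes (0.06 to 0.17), while in rbcL all cop1-4 arrays lie below 0 but overlap with wild type, and the mutant arrays lie at or below 0 in the mitochondrial probe sets apart from 1 just above it.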

How the data were processed

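Per the labels' protocols, total RNA (10 ug) was made into biotin-labelled cRNA and hybridised to 1-colour Affymetrix arrays. The deposited table holds 1 linear intensity per probe set and array. The submitters' processing notes name MAS5, without version or target. The 2% trimmed mean was 495 or 496 on every array. Precision is limited by the number of arrays. The labels call the replicates biological and say no more, and p-values measure the spread among these arrays, which may be technical in part.

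Signals were taken to log2 after adding 24.5, their 20th percentile, and probe sets with a mean at or above the 30th percentile were kept. The model of limma 3.58.1 (R 4.3.3; lmFit, eBayes with trend) had 1 mean per genotype over 9 arrays, with two-sided tests and Benjamini-Hochberg adjustment per comparison. The fit was run on simulated arrays with independent noise, without a separate replicate 1 or shared deviations of same-numbered arrays. That run does not show how the fit performs on arrays such as these. No 2 arrays were duplicates (0 identical columns).

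Replicate numbers were taken to pair the samples, since deviations from genotype means correlated between all 9 same-numbered pairs (0.375 to 0.806). Deviations within a genotype sum to 0, so the separate replicate 1 enters all of these values. Arrays of unequal number were not compared, so the values cannot show that replicates 2 and 3 pair by number. The p-values with the block rest on that pairing. Alternatives were 2 other offsets, 2 median scalings, quantile normalization, 2 other filters, the block, a batch term for replicate 1, array weights, replicates 2 and 3 only, values within replicate 1, and leaving out each array.

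Every subunit gene was to be accounted for, with array values printed for psbA, rbcL, called genes and those of largest change in each complex. Members, lists and this rule were chosen with earlier results of these data known, so counts over them are descriptions. The platform annotation gave 13513 probe sets 1 gene, 503 several and 8730 none, and 13436 matched the gene table. A list for mitochondrial genes by locus tag matched none, and the list by symbol replaced it.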

Additional observations from a re-analysis of the deposited data

How the results depend on the processing

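In cop1-4 against wild type the same 8 genes were called with both other offsets, both median scalings and both other filters; quantile normalization also called 8, of which 7 were shared, with petG in place of psbK. The count was 17 with the replicate block, 17 with array weights, 19 with a batch term for replicate 1 and 20 in replicates 2 and 3 only. The batch term raised 18 genes and lowered 1, rbcL. For cop1-4 BBX22-GFPox against cop1-4 the count of 0 became 5 with array weights, 1 with the batch term and 8 in replicates 2 and 3 only. The gene called with the batch term was rbcL, and it was also called in the other 2 settings. For cop1-4 BBX22-GFPox against wild type the count of 10 became 26 with the block, 22 with array weights, 27 with the batch term and 30 in replicates 2 and 3 only. The share of all probe sets raised moved too, from 9.80% to 18.9% with the block and 27.8% in replicates 2 and 3 only. For array weights, the batch term and the left-out arrays that share was not taken, so those counts are descriptions. When each array was left out in turn the counts ran from 3 (without wild type replicate 2) to 11, stayed at 0, and ran from 4 (without cop1-4 BBX22-GFPox replicate 3) to 15. For cop1-4 BBX22-GFPox against wild type the other scalings and filters gave 8 to 11. The cause of these moves was not tested.

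Signs were followed over the alternatives, other than values within replicate 1, for psbA, rbcL, called genes and those of largest change in each complex. Values of these that changed sign belonged to genes not called in that comparison in the fit of all arrays. Other genes changed sign too. In replicates 2 and 3 only, psbF was -0.28 and psbL -0.0083 in cop1-4 against wild type, and psaC -0.14 with the construct against cop1-4. In cop1-4 against wild type psaA was -0.34 with array weights and -0.30 in replicates 2 and 3 only, psbE -0.22 with quantile normalization, -0.31 with array weights and -0.33 in replicates 2 and 3 only, and petB -0.0832, -0.0882 and -0.0846 in the same order. With BBX22-GFPox against cop1-4, petG was -0.0058 and atpI -0.0318 with array weights, atpI -0.055 in replicates 2 and 3 only, and petB 0.0143 and atpE 0.0018 with quantile normalization. Against wild type petB was 0.0484 with median scaling and 0.0492 when plastid-encoded probe sets were left out of that scaling. Among the followed genes, leaving out 1 array gave ranges across 0 in cop1-4 against wild type for psaA (-0.56 to 0.67), psbE (-0.35 to 0.25), petB (-0.16 to 0.18) and atpH (-0.24 to 1.15). It gave them with the construct against cop1-4 for psbA (-0.60 to 0.90), psbC (-0.2112 to 0.0841), psbD (-0.11 to 0.27), psbZ (-0.2639 to 0.0116), petG (-0.31 to 0.48), petN (-0.0378 to 0.4573), atpI (-0.0059 to 0.2366), petL (-0.37 to 0.74), petB (-0.30 to 0.12), atpF (-0.99 to 1.16), atpH (-0.73 to 1.18) and atpE (-0.2032 to 0.0643), and against wild type for petB (-0.2523 to 0.0851) and atpH (-0.0934 to 1.5234). Over all alternatives the median of the 33 genes ran from 0.42 to 0.96 in cop1-4 against wild type, from -0.085 to 0.48 with the construct against cop1-4 and from 0.59 to 1.27 with the construct against wild type. In cop1-4 against wild type it ran from 0.44 to 0.99 for photosystem I, 0.52 to 1.06 for photosystem II, 0.68 to 1.03 for the cytochrome complex and 0.0658 to 0.86 for the ATP synthase.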
